A study of Sus scrofa with 16 samples.

Results

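The genes described here carry out or control the use of fatty acids and ketone bodies as fuel in heart muscle. They were taken by symbol from a list of 39 genes that was chosen with earlier results of these data known. Of these, 38 have a line in the tables of 22629 genes, and *CD36* is not analysed here. The list holds 5 examined genes of fatty acid uptake and activation, 4 of the carnitine shuttle, 13 of mitochondrial beta oxidation, 3 of electron transfer, 2 of malonyl-CoA metabolism, 4 regulators, 4 genes that respond to fatty acid supply and 3 of ketone use. RNA was sequenced from left ventricular myocardium of 8 White Yorkshire-Landrace farm pigs operated on at 1 month of age. In 4 ischemia/reperfusion (IR) pigs the left anterior descending artery (LAD) was occluded for 1 h and reopened, and in 4 sham pigs the suture was placed and not tightened. Hearts were collected 4 weeks later. Each pig gave a sample from the scar zone, just below the suture site, and from the border zone beside it. Scar zone samples of IR pigs included surviving muscle as well as scar, and those of sham pigs came from the same place in hearts that had surgery and a suture but no occlusion. Pigs 2 and 14 (female) and 9 and 11 (male) had IR, and pigs 4 and 5 (female) and 12 and 13 (male) had sham surgery.

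Long-chain fatty acids are freed from lipoproteins by lipoprotein lipase, bound in the cytosol by fatty acid binding protein and activated to acyl-CoA. The carnitine shuttle carries them into mitochondria, where beta oxidation removes acetyl units in repeated rounds and passes electrons to the respiratory chain through the electron transfer flavoproteins. Malonyl-CoA blocks the entry step of the shuttle. The nuclear receptors PPARα and ERRα with the coactivator PGC-1α turn on many of these genes, and the adult heart draws most of its ATP from fatty acids while also burning ketone bodies.

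The 16 samples had totals of 15427663 to 49045206 estimated counts (median 21822696), so that 3 counts, taken as the limit of detection, correspond to 0.0612 to 0.194 CPM, the usual scaling of counts to a common library size. Levels between samples are given as CPM after TMM scaling, and levels between genes as TPM, which are scaled for transcript length. Cardiomyocyte markers were high in every sample, with *MYH7* between 35785 and 54924 CPM. Of 8 adipocyte markers, *PLIN1* and *LEP* stayed at or below 0.474 CPM and *ADIPOQ* at or below 2.54 CPM, while *FABP4*, which capillary endothelium also makes, was 51.0 to 157.5 CPM and *LIPE*, which muscle also makes, 3.47 to 17.3 CPM. The scar zone samples of IR pigs 9 and 11 stood apart. Their 10 fibroblast and matrix markers summed to 26899 and 35307 CPM, against 5082 to 7962 CPM in the other 6 scar zone samples, and the mean log2 CPM of their 11 cardiomyocyte markers was 11.5 and 11.9, against 12.1 to 12.3. Their 10 leucocyte markers summed to 313 and 350.5 CPM, against 121 to 234 CPM in the other 6. Relative to the sham mean, the median of 7 endothelial markers was -0.43 and -0.37 on the log2 scale in pigs 9 and 11, and -0.01 and 0.10 in pigs 2 and 14.

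The genes of the oxidation pathway were among the more abundant transcripts of the muscle and spanned a wide range of levels. Together the 38 genes took 0.813% to 1.24% of the counts of a sample. The beta subunit of the mitochondrial trifunctional protein, *HADHB*, was the highest by mean TPM (556 ± 88.7, SD over 16 samples). It was followed by lipoprotein lipase, *LPL* (426 ± 91.7), the ketone-activating enzyme *OXCT1* (371 ± 51.8), the hydroxyacyl-CoA dehydrogenase *HADH* (340 ± 31.4) and the heart fatty acid binding protein *FABP3* (332 ± 46.6). The SD ranges of neighbours in this order overlapped for all of these genes. At the low end were *SLC27A6* (1.26 ± 0.672 TPM), a fatty acid transport protein, and the uncoupling protein *UCP3* (0.275 ± 0.147 TPM), which had 2 to 22.8 counts in a sample and passed the filter on low counts in only 1 of the 5 comparisons.

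**Figure D1:**
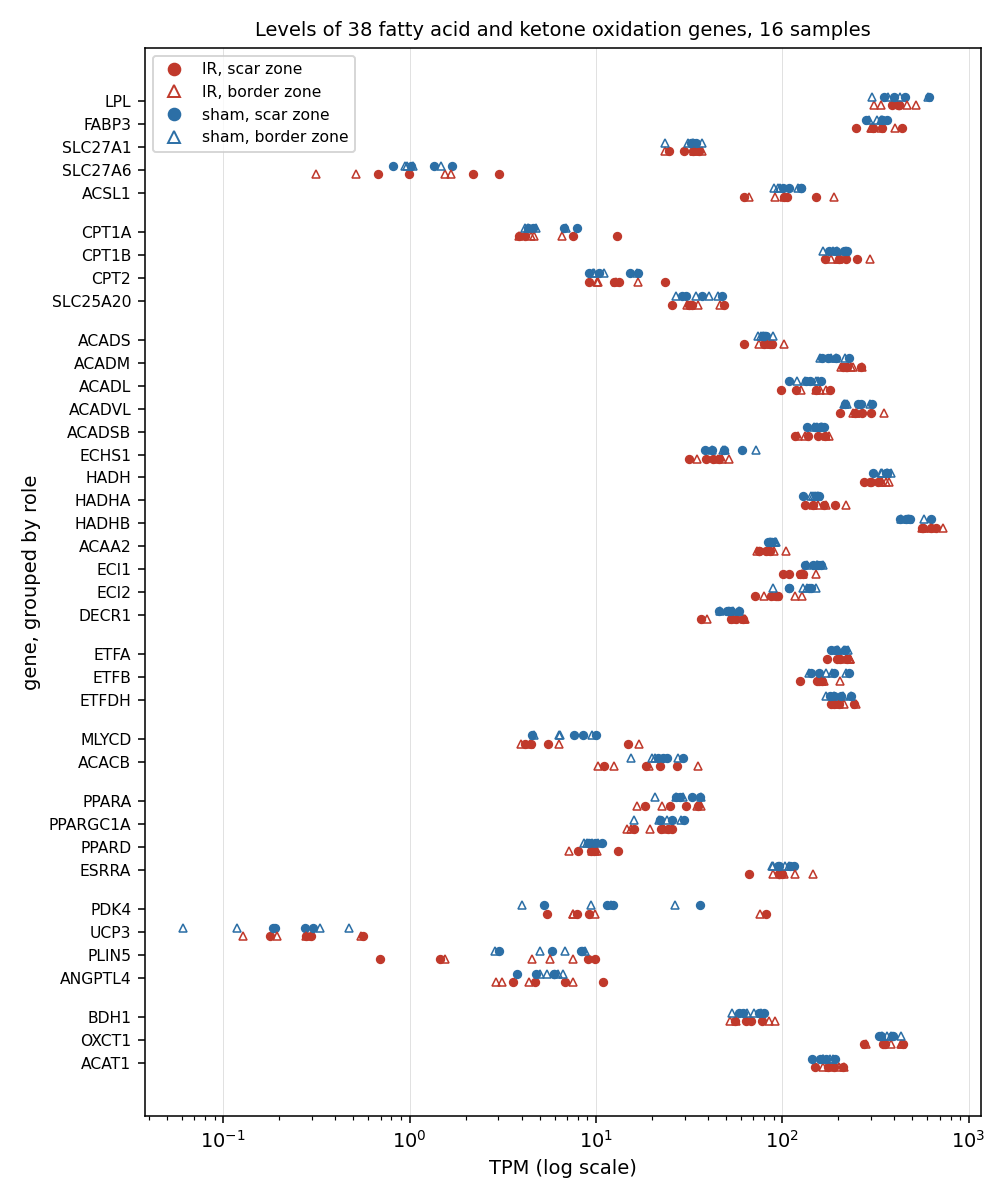
TPM on a log axis of the 38 examined genes, grouped by role, with 1 symbol per sample (red IR, blue sham, filled circles scar zone, open triangles border zone). Levels run from 0.0608 TPM of *UCP3* to 728 TPM of *HADHB*, and the 4 groups of symbols overlap for most genes.

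The muscle and liver forms of carnitine palmitoyltransferase 1, which commits a fatty acid to the mitochondrion, differed strongly in level. The muscle form *CPT1B* had a TPM 19.4 to 57.2 times that of the liver form *CPT1A* in every sample. Within the scar zone of IR pigs this ratio was 57.2 in pig 2, 48.3 in pig 14, 19.4 in pig 9 and 22.3 in pig 11, while it was 28.0 to 42.5 in the sham scar zone. *CPT1A* was 20.0, 41.3, 32.1 and 21.8 CPM in the scar zone of IR pigs 2, 9, 11 and 14, where sham pigs had 20.3 to 35.6 CPM. The groups overlapped, with pigs 9 and 11 the higher IR pigs. *CPT1A*, *PLIN5*, *PPARA*, *MLYCD*, *CPT2* and *ANGPTL4* are given by sample because of values seen in these data.

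The first comparison asked how IR pigs differed from sham pigs in the scar zone 4 weeks after injury. No gene of the list, and none of the 14023 genes tested, passed an adjusted p of 0.05 (edgeR quasi-likelihood test, Benjamini-Hochberg). At an unadjusted p of 0.05, 2 of 37 tested genes were lower in IR pigs and 0 were higher, which is 5.41% lower beside a background of 4.64% of all genes lower and 6.57% higher. The 2 were the enoyl-CoA isomerases *ECI1* and *ECI2*, which move double bonds of unsaturated fatty acids so that they can enter beta oxidation. The fold changes of the list lay mostly on the lower side: 31 of 37 (83.8%) were below 0, against 46.1% of all genes, with a median log2 fold change of -0.20 against 0.03. The count of lower genes moved with single pigs, with 1 lower without sham pig 5 or IR pig 11, 6 without IR pig 2 and 10 without IR pig 14. The share of all genes past the same p in either direction moved as well, to 5.61%, 5.65%, 18.2% and 16.7% in these 4 fits. The median of the list was -0.12 without IR pig 11 and -0.29 without IR pig 14, the ends of its range over the 8 fits. DESeq2 called 75 genes at the adjusted threshold, none of them in the list.

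*ECI2* was 179 CPM in pig 2, 118 in pig 9, 119 in pig 11 and 173 in pig 14 in the IR scar zone, and 252, 282, 202 and 217 CPM in sham pigs 4, 5, 12 and 13. All 4 IR values lay below all 4 sham values, at 147 ± 33.5 against 238 ± 36.1 CPM (SD, n = 4). The log2 fold change was -0.70 (SE 0.18, unadjusted p = 0.00381, adjusted p = 0.438 with edgeR). The two-sided exact permutation test gave 0.0286, the smallest p that 4 against 4 allows. *ECI2* kept an unadjusted p below 0.05 when any 1 pig was left out, at -0.82 to -0.61.

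*ECI1* was 137, 77.7, 95.4 and 139.8 CPM in the scar zone of IR pigs 2, 9, 11 and 14, and 162, 179.9, 140.1 and 164 CPM in sham pigs 4, 5, 12 and 13. These groups were also separate, but by a margin of only 139.8 against 140.1 CPM. The log2 fold change was -0.53 (SE 0.20, unadjusted p = 0.0227, adjusted p = 0.438 with edgeR), and the exact permutation p was 0.0286. Separation of the groups with IR lower was seen in 2.65% of all genes tested and with IR higher in 2.20%. Both isomerases were also separate on the TPM scale, beside 0.628% of all genes separate with IR lower and 3.42% with IR higher. *ECI1* passed the unadjusted threshold in 6 of 8 fits with 1 pig left out, with a largest p of 0.0593 across those fits of the edgeR model.

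**Figure D2:**
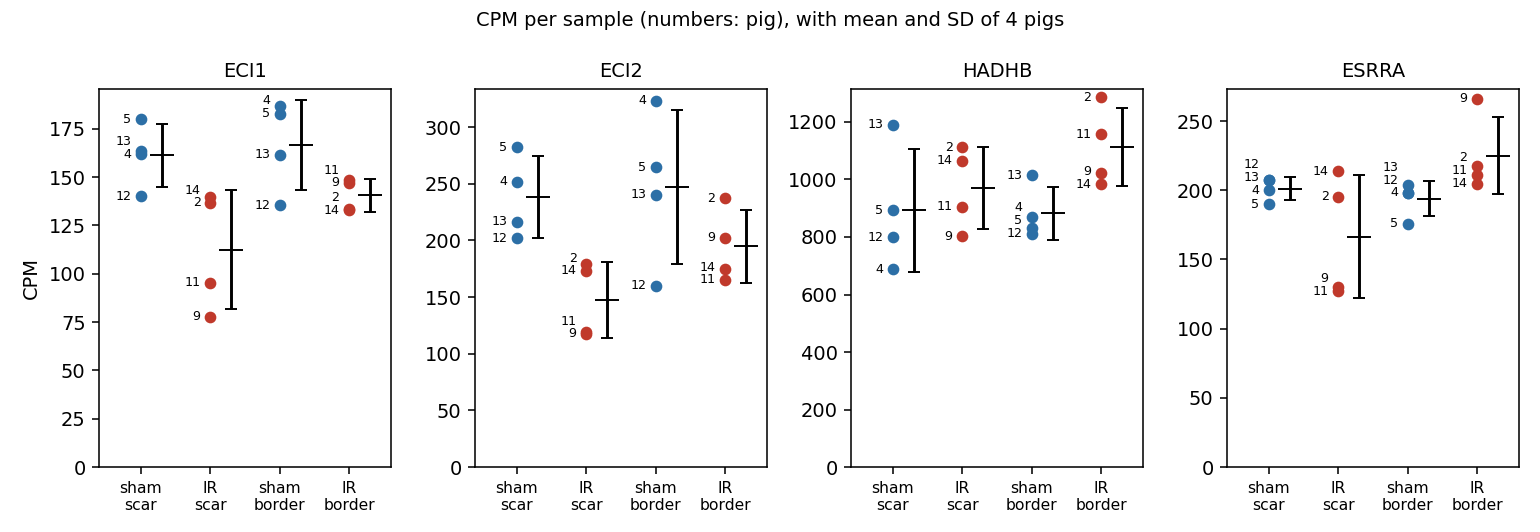
CPM of *ECI1*, *ECI2*, *HADHB* and *ESRRA* per sample (points, labelled by pig), with the mean and SD of the 4 pigs of each group (black). Both isomerases are lower in all 4 IR pigs in the scar zone, and *ESRRA* is lowest in the scar zone of pigs 9 and 11.

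The other 11 beta oxidation genes gave no call in the scar zone. Their log2 fold changes ran from -0.40 for enoyl-CoA hydratase *ECHS1* (SE 0.21) to 0.12 for *HADHB* (SE 0.19). *HADH*, which catalyses the third step of each round, was at -0.37 (SE 0.18) and the thiolase *ACAA2*, which catalyses the last, at -0.30 (SE 0.14). The acyl-CoA dehydrogenases, which open each round on chains of different length, were at -0.21 for *ACADVL*, -0.20 for *ACADL*, 0.06 for *ACADM*, -0.20 for *ACADS* and -0.29 for *ACADSB*, the short/branched chain form. *HADHB* itself was 1112, 802, 906 and 1065 CPM in IR pigs 2, 9, 11 and 14 and 688, 893, 799 and 1189 CPM in sham pigs 4, 5, 12 and 13, and the groups overlapped.

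Genes of uptake and activation did not pass the test in the scar zone. *LPL* was 1211, 766, 1011 and 1249 CPM in IR pigs 2, 9, 11 and 14 and 989, 1451, 937 and 1228 CPM in sham pigs 4, 5, 12 and 13. The IR group included the lowest value, in pig 9, and lay otherwise within the sham range. The log2 fold changes were -0.13 for *LPL*, -0.15 for *FABP3*, -0.26 for the transport protein *SLC27A1*, -0.32 for the acyl-CoA synthetase *ACSL1* and 0.26 for the low *SLC27A6* (SE 0.38). In the carnitine shuttle, *CPT1B* was 538, 412, 370.4 and 531 CPM in IR pigs 2, 9, 11 and 14, against 467 to 568 CPM in sham pigs, with the 2 values below the sham range in pigs 9 and 11. The carnitine-acylcarnitine carrier *SLC25A20* was at -0.30 (SE 0.19), *CPT1B* at -0.11 (SE 0.16), *CPT2* at -0.07 (SE 0.23) and *CPT1A* at 0.16 (SE 0.26).

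The electron transfer genes, which take electrons from the acyl-CoA dehydrogenases to ubiquinone, were all below 0. *ETFA* was 244, 159, 183 and 276 CPM in IR pigs 2, 9, 11 and 14 and 208, 221, 258 and 276 CPM in sham pigs 4, 5, 12 and 13. Pigs 9 and 11 were again the lowest, and the log2 fold change was -0.17 (SE 0.19). *ETFB* was at -0.45 (SE 0.22, unadjusted p = 0.0663 with edgeR) and *ETFDH* at -0.16 (SE 0.14). Of the malonyl-CoA genes, *ACACB*, the carboxylase that makes malonyl-CoA at the mitochondrial surface, was 114, 114, 60.9 and 145 CPM in IR pigs 2, 9, 11 and 14. It was 139, 193, 138 and 140.3 CPM in sham pigs 4, 5, 12 and 13. The 3 lowest values were IR pigs, while pig 14 lay inside the sham range, and the log2 fold change was -0.50 (SE 0.24, unadjusted p = 0.066 with edgeR). *MLYCD*, which breaks malonyl-CoA down, was at -0.38 with an SE of 0.34.

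Among the regulators, *ESRRA*, which encodes ERRα, was 195, 130.0, 127 and 214 CPM in the scar zone of IR pigs 2, 9, 11 and 14, and 200.1, 189.9, 208 and 207 CPM in sham pigs 4, 5, 12 and 13. Pigs 9 and 11 lay well below a narrow sham range and pig 14 above it. *PPARA* also had its lowest values in pigs 9 and 11, at 37.6, 17.8, 17.2 and 34.0 CPM in the IR pigs, where sham pigs had 30.9 to 36.1 CPM. The log2 fold changes were -0.28 (SE 0.18) for *ESRRA*, -0.33 (SE 0.26) for *PPARA*, -0.15 (SE 0.11) for *PPARD* and -0.09 (SE 0.24) for *PPARGC1A*, which encodes PGC-1α. None passed the test.

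The ketone genes gave no call. *OXCT1*, which activates acetoacetate, was 827, 854, 941 and 1108 CPM in IR pigs 2, 9, 11 and 14 and 859.8, 1047, 1116 and 1235 CPM in sham pigs 4, 5, 12 and 13. The groups overlapped, at a log2 fold change of -0.20 (SE 0.15). The hydroxybutyrate dehydrogenase *BDH1* was at -0.20 (SE 0.21) and the thiolase *ACAT1* at -0.07 (SE 0.15).

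**Figure D3:**
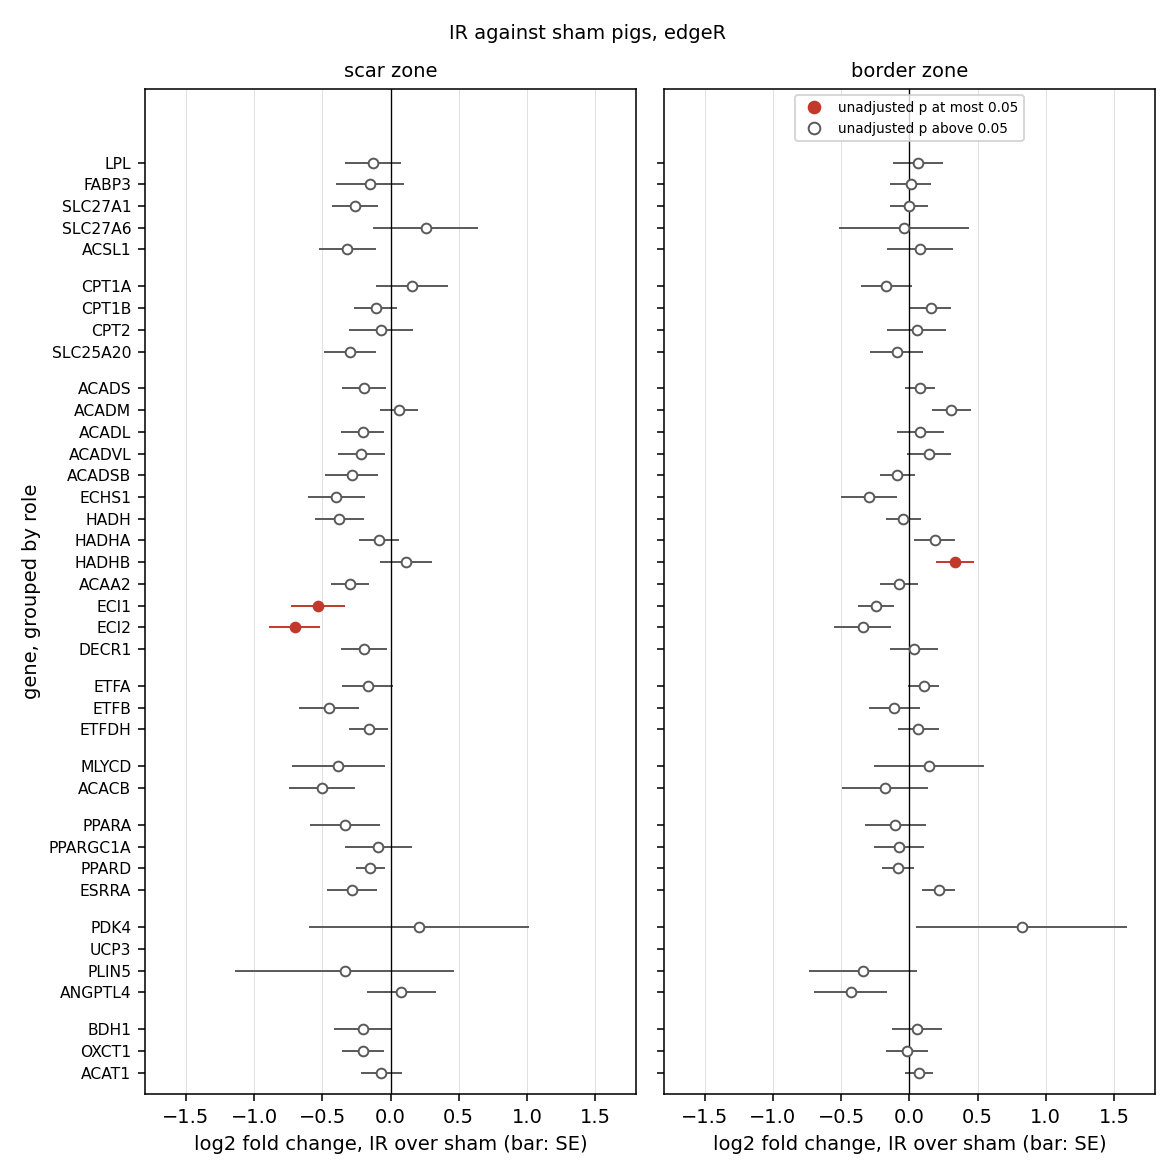
Log2 fold change of IR over sham pigs with its SE for each tested gene, in the scar zone (left) and the border zone (right). Red marks an unadjusted p up to 0.05. Scar zone points lie below 0 for 31 of 37 genes, and border zone points for 18 of 37.

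The low values were most frequent in 2 of the 4 IR pigs. In the scar zone, 25 of 38 genes in pig 9 and 26 in pig 11 lay below all 4 sham pigs, against 14 in pig 2 and 4 in pig 14. These are 65.8%, 68.4%, 36.8% and 10.5% of the list in pigs 9, 11, 2 and 14, beside 27.6%, 27.8%, 22.2% and 23.0% of all genes. The median of the 38 genes relative to the sham mean was -0.35 and -0.43 on the log2 scale in pigs 9 and 11, and -0.03 and -0.00 in pigs 2 and 14. The scar zone samples of pigs 9 and 11 were those with high matrix and leucocyte and low cardiomyocyte and endothelial markers. The median of 4 smooth muscle markers relative to the sham mean was 0.52 and 0.70 in them, and 0.08 and -0.46 in pigs 2 and 14. That of 3 red blood cell markers was 0.47 and 0.64, and 0.03 and 0.17 in pigs 2 and 14. In the scar zone of pig 11, 2 of 11 cardiomyocyte and 1 of 7 endothelial markers lay above all sham pigs. In the border zone of pigs 9 and 11 the endothelial median was -0.11 and -0.32 and the leucocyte median 0.51 and 0.09. The 38 genes were at 0.11 and -0.03 there. The part of leucocytes, endothelium, smooth muscle and red blood cells in the result was not tested. In these bulk samples fewer cardiomyocytes and less of the RNA per cardiomyocyte cannot be told apart. Without pigs 9 and 11, an alternative chosen after seeing the data, 21 of 37 genes were below 0 and 1 was lower at the unadjusted threshold, beside 5.48% of all genes in either direction, with a median of -0.07. *ECI2* was at -0.44 (unadjusted p = 0.0257 with edgeR) and *ECI1* at -0.23 (unadjusted p = 0.131 with edgeR) in that fit. With counts scaled to the cardiomyocyte markers, which moved the median of all genes to 0.29, 16 of 37 genes were below 0, at a median of 0.03. *ECI2* was then at -0.48 (unadjusted p = 0.00844 with edgeR) and *ECI1* at -0.33 (unadjusted p = 0.0388 with edgeR). On the TPM scale the median of all genes was 0.15, and the list lay at -0.05 with 25 of 37 below 0. Relative to the median of all genes the list lay 0.23 lower in the fit with TMM, 0.26 lower with cardiomyocyte scaling and 0.19 lower with TPM. Cardiomyocyte scaling moves all genes of a sample alike, so it can hardly change this distance and is no test of it. Without pigs 9 and 11 the list lay at -0.07 relative to the median of all genes.

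The IR pigs 9 and 11 were the males, so sex and the 2 matrix-rich samples cannot be told apart. Both zones of these pigs also had the highest totals, 33521400 to 49045206 estimated counts against 15427663 to 27088652 in all other samples. Among the IR scar zone samples depth cannot be told apart from either, and its part was not tested. A fit with a group for each sex and surgery, also chosen after seeing the data, had 2 pigs per group. In males the scar zone IR effect passed the adjusted threshold for 7.44% of all genes (1044 of 14023) and for 9 of 37 list genes, 8 lower and 1 higher. Lower were *ECI2* (-0.82), *ECI1* (-0.81), *ECHS1* (-0.77), *ESRRA* (-0.69), *ETFA* (-0.65), *SLC27A1* (-0.64), *PPARA* (-0.91) and the lipid droplet protein *PLIN5* (-2.89), and *CPT1A* was higher (0.81), on the log2 scale with adjusted p between 0.0136 and 0.0434 from edgeR. The adjusted calls included 10 of 10 matrix markers, which were higher, and 3 of 11 cardiomyocyte markers, which were lower. Without sham pig 13 the lower calls of the list came to 0, without sham pig 12 to 1, and without IR pig 9 or 11 to 5 or 3, with 0 higher in each of these 4 fits. Each of them left an arm with 1 pig, which was assumed to vary like the other groups, and the share of all genes past the adjusted p came to 0.705%, 0.332%, 3.98% and 3.55%. With cardiomyocyte scaling, which moved the median of all genes to 0.46, 1 list gene was lower and 3 were higher, beside 16.3% of all genes. In males 2 list genes were higher and 18 lower at the unadjusted p, beside 13.2% and 11.6% of all genes. In females 0 list genes passed the adjusted threshold (0.00713% of all genes did), and 1 higher and 5 lower passed the unadjusted one, beside 7.05% and 5.83% of all genes. The male minus female difference passed the adjusted threshold for 1.52% of all genes and for 0 of the list, although 4 list genes were higher and 14 lower at the unadjusted p, beside 9.62% and 9.06% of all genes.

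The second comparison asked the same of the border zone, and the list gave 1 call there. Of 37 genes tested, 0 passed the adjusted p, 1 was higher and 0 lower at the unadjusted p, beside 3.78% of all genes, 2.09% higher and 1.69% lower. The fold changes were evenly split, 18 of 37 below 0 beside 50.0% of all genes, at a median of 0.01. The gene called was *HADHB*. It was 1285, 1024, 1156 and 984 CPM in IR pigs 2, 9, 11 and 14, and 870.2, 833, 811 and 1015 CPM in sham pigs 4, 5, 12 and 13. Pig 14 lay below sham pig 13, so the groups overlapped slightly. The log2 fold change was 0.34 (SE 0.14, unadjusted p = 0.0346, adjusted p = 0.988 with edgeR), and it passed in 3 of 8 fits with 1 pig left out. The alpha subunit of the same protein, *HADHA*, was at 0.19 (SE 0.15), and the TPM of *HADHB* was 2.83 to 4.21 times that of *HADHA* in all samples.

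*ESRRA* was the one list gene whose border zone values were separate in IR and sham pigs, at 218, 266, 211 and 205 CPM in IR pigs 2, 9, 11 and 14 against 198, 176, 198 and 204 CPM in sham pigs 4, 5, 12 and 13. Pig 14 and sham pig 13 almost touched. The exact permutation p was 0.0286, the edgeR log2 fold change 0.21 (SE 0.12, unadjusted p = 0.104), and IR was separately higher in 0.794% of all genes. On the TPM scale 0 genes of the list were separate in the border zone, beside 1.17% of all genes with IR higher and 0.561% with IR lower. In the fit by sex, with 2 pigs per group, males had 3 list genes higher and 0 lower at the unadjusted p, beside 2.17% and 2.64% of all genes. Females had 0 higher and 3 lower, beside 4.30% and 3.21%. At the same p the male minus female difference was above 0 for 7 list genes and below 0 for 0, beside 3.04% and 3.85% of all genes. No list gene passed the adjusted p in females or for the difference, where 0.00728% and 0.0146% of all genes did, or in males, where none did. The isomerases were on the lower side in the border zone too, *ECI1* at -0.25 (SE 0.13) and *ECI2* at -0.34 (SE 0.21), without passing the test.

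The third comparison asked whether the IR effect differed between zones. For 33 of 37 list genes the scar zone effect was the lower one, against 47.8% of all genes, and the median difference was -0.22. It was between -0.14 without IR pig 9 and -0.33 without IR pig 14 when 1 pig was left out. Without a term for pig, 0 genes passed the adjusted p of edgeR, and at the unadjusted p 1 was lower and 0 were higher, beside 2.22% of all genes, 0.259% lower and 1.96% higher. The gene was *ESRRA* at -0.49 (SE 0.22, unadjusted p = 0.0400 and adjusted p = 1.00 in edgeR). *ESRRA* passed in 2 of 8 fits with 1 pig left out and was at -0.28 (unadjusted p = 0.226 with edgeR) with cardiomyocyte scaling and at -0.10 (unadjusted p = 0.518 with edgeR) without pigs 9 and 11. The scar and border samples of a number come from the same animal, and once a replicate block for pig was fitted 4 genes were lower (*ESRRA*, *ETFB*, *MLYCD* and *PDK4*) and *ANGPTL4* was higher at the unadjusted p, beside 2.75% of all genes lower and 4.24% higher. The block estimates were -0.52 for *ESRRA* (SE 0.21), -0.36 for *ETFB* (SE 0.15), -0.42 for *MLYCD* (SE 0.16), -0.52 for *PDK4* (SE 0.15) and 0.56 for *ANGPTL4* (SE 0.22). Their adjusted p was 0.702 in edgeR. With cardiomyocyte scaling 17 of 37 genes were below 0, at a median of 0.02 where that of all genes was 0.29. Without pigs 9 and 11 and without the block, 20 genes had the lower effect in the scar zone and the median difference was -0.00.

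*ANGPTL4*, a secreted inhibitor of lipoprotein lipase that PPARs induce, exceeded its border zone level in the scar zone of all 4 IR pigs, by 0.21, 0.09, 0.34 and 0.79 on the log2 scale in pigs 2, 9, 11 and 14. In sham pigs 4, 5, 12 and 13 the difference was -0.14, -0.01, -0.76 and 0.02. The groups did not overlap (0.36 ± 0.31 against -0.22 ± 0.36, SD, n = 4), with an exact permutation p of 0.0286, and it was the only list gene of 38 with separate groups, beside 2.30% of all genes separate with IR higher and 1.70% with IR lower. Its level was low, at 4.38 to 11.2 CPM, and neither zone alone gave a call (log2 fold change 0.08 for the scar and -0.43 for the border zone). On the TPM scale *SLC27A6* and *HADH* also reached that p, beside 2.16% of all genes separate with IR higher and 0.455% with IR lower.

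Within IR pigs the scar zone was compared with the border zone. Of 38 genes, 31 were below 0 (48.4% of all genes were), with a median of -0.22, and 13 of 13 beta oxidation genes and 3 of 3 electron transfer genes were among them. The median was -0.13 without pig 9 and -0.33 without pig 2 or 14. Without the pairing 0 genes passed even the unadjusted p, beside 4.35% of all genes, 3.55% higher and 0.805% lower. When pig was fitted as a replicate block 8 were lower at the unadjusted p and 0 higher, beside 4.81% and 6.49% of all genes. These were *ACADL* (-0.33, SE 0.09), *HADH* (-0.40, SE 0.13), *ECI2* (-0.42, SE 0.13), *ETFB* (-0.38, SE 0.12), *ECHS1* (-0.33, SE 0.13), *HADHA* (-0.27, SE 0.11), *ESRRA* (-0.47, SE 0.19) and *PDK4* (-0.25, SE 0.09), with an adjusted p of 0.431 for each in edgeR. In 10 of 38 genes (26.3%) the scar zone was the lower in all 4 IR pigs, beside 10.4% of all genes. They were *ACADM*, *ACADL*, *ECHS1*, *HADH*, *HADHA*, *ECI2*, *DECR1*, *ETFB*, *PDK4* and *OXCT1*. In sham pigs no list gene was lower in all 4, beside 6.34% of all genes.

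*ACADL*, the long-chain acyl-CoA dehydrogenase, was among these 10 genes, at -0.33, -0.27, -0.48 and -0.25 on the log2 scale in IR pigs 2, 9, 11 and 14. *HADH* was at -0.26, -0.76, -0.49 and -0.10, with pig 9 the furthest from 0. *ETFB* was at -0.30, -0.49, -0.69 and -0.02, *HADHA* at -0.37, -0.29, -0.39 and -0.03 and *ECHS1* at -0.03, -0.67, -0.45 and -0.17 in the same pigs, and pig 14 had the value nearest 0 for *ETFB* and *HADHA* and pig 2 for *ECHS1*. Across the list the median difference was -0.59 in pig 9 and -0.45 in pig 11, but 0.01 in pig 2 and 0.04 in pig 14. The cardiomyocyte markers moved with it, at -0.42 and -0.35 in pigs 9 and 11 and -0.06 in both others, and so did the 21 citric acid cycle genes, at -0.57 and -0.49 against 0.02 and 0.05. The matrix markers were at 2.08 and 1.74 in pigs 9 and 11, and -0.18 and -0.19 in pigs 2 and 14. Without pigs 9 and 11, 18 of 37 genes were below 0. With cardiomyocyte scaling 11 of 38 were, at a median of 0.05 where that of all genes was 0.31.

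**Figure D4:**
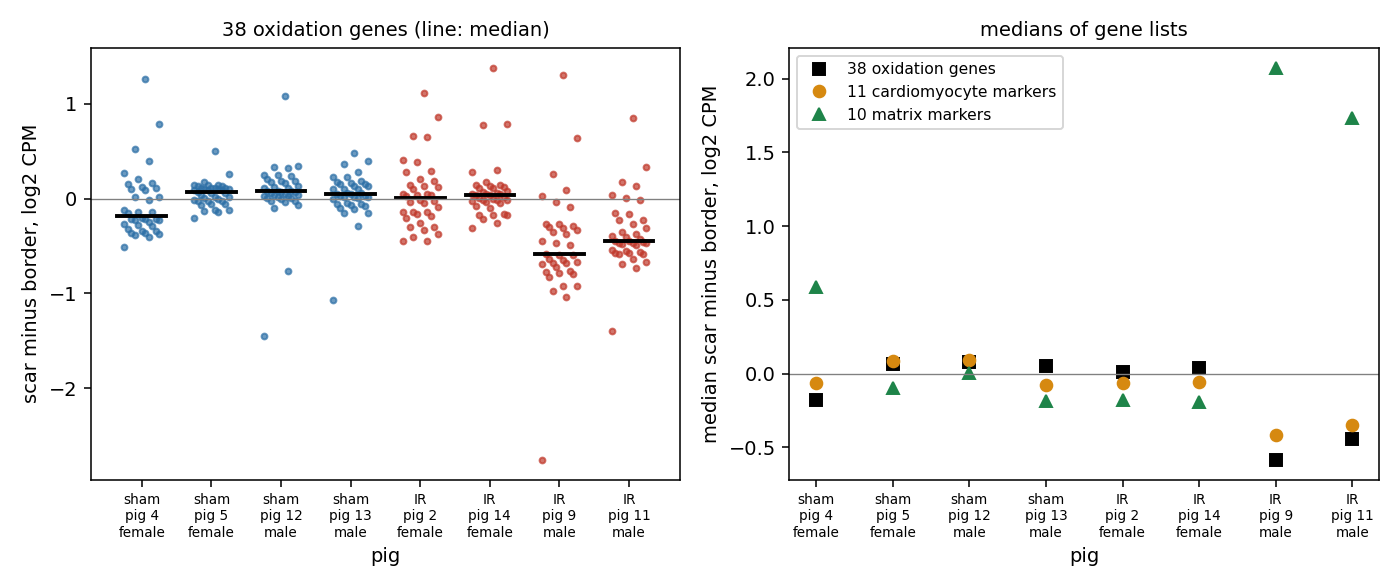
Scar minus border zone difference in log2 CPM for each pig, for the 38 genes (left, points, with the median as a line) and as medians of the 38 genes, 11 cardiomyocyte markers and 10 matrix markers (right). The median of the 38 genes is -0.59 and -0.45 in IR pigs 9 and 11 and between -0.18 and 0.08 in the other 6 pigs.

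The zones of sham pigs, which had the suture but no occlusion, were compared in the same way. Of 37 genes 0 passed the unadjusted p without pairing (0.819% of all genes did, 0.341% higher and 0.478% lower) and 17 were below 0, beside 52.6% of all genes, with a median of 0.03. When pig was fitted as a replicate block *ACACB* (0.23, SE 0.07), *ACSL1* (0.17, SE 0.07) and *PDK4* (0.27, SE 0.11) were higher on the scar side by unadjusted p, beside 2.68% of all genes, with an adjusted p of 0.931 in edgeR. The median of the list was between -0.18 in pig 4 and 0.08 in pig 12.

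Some list genes varied far more between pigs than between the zones of a pig. *PDK4* encodes the kinase that shuts off pyruvate dehydrogenase and so spares glucose when fatty acids are plentiful. It was 15.9, 161, 23.9 and 24.6 CPM in the scar zone of IR pigs 2, 9, 11 and 14 and 21.6, 202, 24.1 and 28.5 CPM in their border zone. In sham pigs 4, 5, 12 and 13 it was 33.4, 112, 32.7 and 16.2 CPM in the scar zone and 30.9, 79.0, 33.4 and 11.6 CPM in the border zone. Pig 9 and sham pig 5 were high in both zones, and the range over the 16 samples was 17.5-fold. The SD of the pig means was 1.33 on the log2 scale and that of the scar minus border difference 0.23, although a difference of single samples carries more noise than a mean. The IR effect was 0.21 (SE 0.81) for the scar and 0.82 (SE 0.77) for the border zone, and neither passed the test.

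*CPT2*, the inner carnitine palmitoyltransferase, and *MLYCD* also varied more between animals than between zones. *CPT2* was highest in sham pig 5 (48.5 and 44.9 CPM in scar and border zone) and IR pig 9 (42.4 and 41.5 CPM), and its SD was 0.36 between pigs and 0.07 between zones on the log2 scale. *MLYCD* was likewise highest in pig 9 (31.7 and 49.2 CPM) and pig 5 (34.1 and 30.9 CPM), with an SD of 0.63 between pigs and 0.24 between zones. *PLIN5*, which coats lipid droplets at mitochondria, was 16.3, 1.61, 1.02 and 15.9 CPM in the scar zone of IR pigs 2, 9, 11 and 14, and 7.49, 11.3, 2.82 and 9.23 CPM in their border zone. In sham pigs it was 4.95 to 14.7 CPM in the scar zone and 5.35 to 13.7 CPM in the border zone. Pigs 9 and 11 lay below the sham range in the scar zone and pigs 2 and 14 above it. In the border zone pig 11 also lay below the sham range. Unlike the other genes named here, *PLIN5* had a smaller SD between pigs (0.95) than between zones (1.53).

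**Figure D5:**
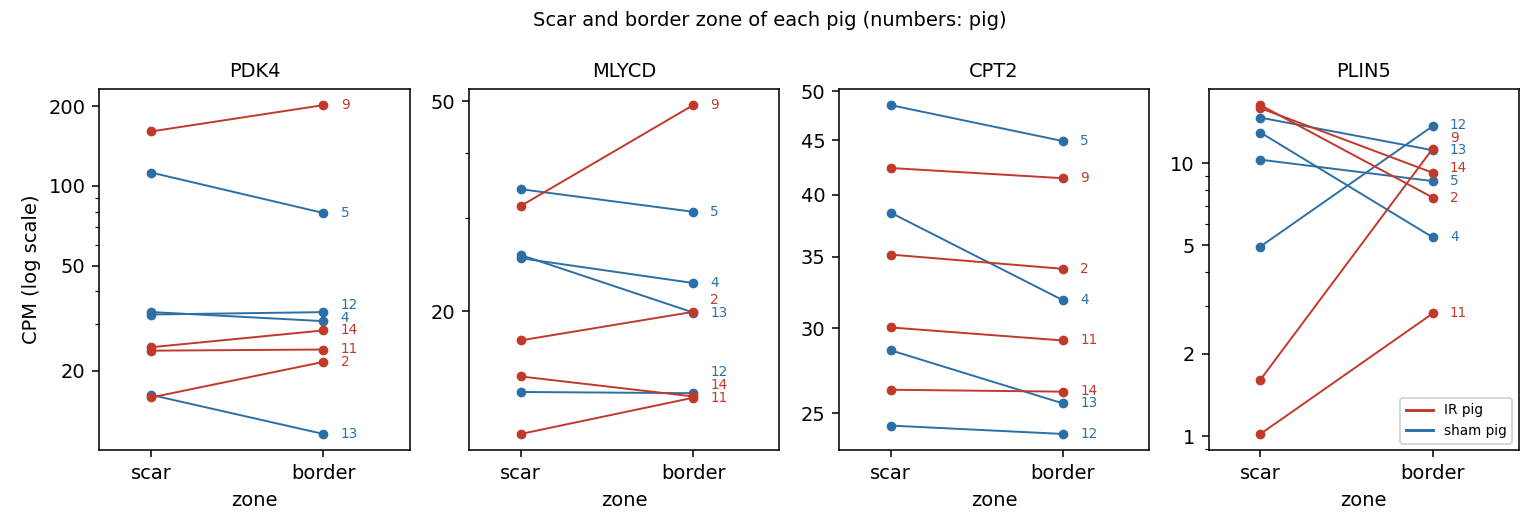
CPM on a log axis of *PDK4*, *MLYCD*, *CPT2* and *PLIN5* in the scar and border zone of each pig (lines, labelled by pig, red IR, blue sham). *PDK4*, *MLYCD* and *CPT2* are highest in IR pig 9 and sham pig 5 in both zones, and *PLIN5* is lowest in the scar zone of pigs 9 and 11.

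The rest of the pathway was counted from lists of related genes. Counted by unadjusted p in the scar zone, 4 of 25 further regulators were lower in IR pigs and 1 was higher, 1 of 15 triglyceride turnover genes was lower, 1 of 21 citric acid cycle genes and 1 of 18 glycolysis genes, beside 4.64% of all genes lower and 6.57% higher. None of 15 peroxisomal, 17 other acyl-CoA or 6 other ketone genes was called, and no list had an adjusted call. The citric acid cycle genes were all below 0 (21 of 21, median -0.24), triglyceride turnover genes in 14 of 15 (median -0.29) and glycolysis genes in 12 of 18 (median -0.08), beside 46.1% of all genes. Relative to the sham mean, the citric acid cycle median was -0.77 and -0.46 on the log2 scale in the matrix-rich pigs 9 and 11, and -0.02 and 0.08 in pigs 2 and 14. The triglyceride turnover median was -0.33 and -0.48 in pigs 9 and 11, 0.0031 in pig 2 and -0.26 in pig 14. The glycolysis median was -0.48 and -0.26 in pigs 9 and 11, but 0.32 in pig 2, where 12 of 19 genes lay above all 4 sham pigs, and 0.04 in pig 14. The single genes called were the monoglyceride lipase *MGLL* (-0.40, SE 0.17), the isocitrate dehydrogenase subunit *IDH3B* (-0.51, SE 0.19) and the muscle phosphoglycerate mutase *PGAM2* (-0.53, SE 0.23). The coactivator *PPARGC1B*, a relative of PGC-1α, was 25.8, 16.3, 10.5 and 16.6 CPM in IR pigs 2, 9, 11 and 14 and 33.4, 31.6, 27.1 and 31.1 CPM in sham pigs 4, 5, 12 and 13, without overlap. Its log2 fold change was -0.84 (SE 0.24, unadjusted p = 0.00566, adjusted p = 0.438 with edgeR). *RXRG*, one of the retinoid X receptors with which PPARs pair, was 18.6, 21.6, 18.8 and 31.6 CPM against 56.2, 109.7, 45.7 and 22.6 CPM in the same pigs, with pig 14 above sham pig 13. Its log2 fold change was -1.38 (SE 0.41, unadjusted p = 0.00792, adjusted p = 0.438 with edgeR). For the border zone, 1 peroxisomal, 1 triglyceride turnover and 1 other acyl-CoA gene were lower and 2 other acyl-CoA genes higher at the unadjusted p, beside 1.69% and 2.09% of all genes. There *PPARGC1B* was at -0.30 and *RXRG* at -0.66, and neither passed.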

How the data were processed

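Polyadenylated RNA from the scar and border zones of 8 pigs was sequenced as stranded, paired reads. Per the submitters' processing notes, Trimmomatic 0.33, HISAT2 2.0.5 and kallisto 0.43.1 were used, and the genome build is not given in the sources used here. The authors deposited estimated counts from Kallisto, run on Ensembl pig cDNA, without scaling for depth. They also deposited TPM, scaled for transcript length and depth. Kallisto divides reads shared between similar transcripts, which can shift levels between related genes. Totals were 15427663 to 49045206 per sample.

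Estimated counts were rounded and tested in R 4.3.3 with edgeR 4.0.16 (TMM, filterByExpr with a minimum count of 10 and total of 15, quasi-likelihood test, Benjamini-Hochberg over all genes tested), with the samples of each comparison only. Log2 CPM used a prior count of 2, and exact permutation tests on it were two-sided. Alternatives were DESeq2 1.42.0, upper-quartile or cardiomyocyte marker scaling, no filter, limma 3.58.1 on log2(TPM + 1) and log2(TPM + 0.1), sex as a covariate, 1 RUVg-like factor from 5000 control genes (the factors of the authors' RUVSeq model are not given in the sources used here), a single fit, and leaving out each pig. The scar and border samples of a pig deviated together (correlations 0.354 to 0.692 over 14278 genes), so pig was also fitted as a replicate block. The pigs are separate animals, and samples of a group correlated at 0.926 to 0.991, with 0 identical pairs.

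The 39 genes, the related lists and the tests were chosen with earlier results of these data known. All genes of the list were described by role, with values per sample for those at an unadjusted p of at most 0.05 in any comparison without the replicate block and for the highest of each role by mean TPM. Of each related list at most 2 genes, those with the smallest scar zone p, were named. Of the genes in the lists, 7 were named through their Ensembl ID. Scripts were tested on simulated data.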

Additional observations from a re-analysis of the deposited data

Results flagged for a closer look

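In a group of 4 samples, 9 of 152 sets of values had a highest or lowest sample far from the other 3 by Dixon's test, which chance alone gives in about 1 of 20 sets. In the IR scar zone this was *ACSL1* in pig 11 (159.5 CPM, others 290.1 to 323). In the IR border zone it was *SLC27A1* in pig 11 (105 CPM, others 136 to 139), *PDK4* in pig 9 (202 CPM, others 21.6 to 28.5) and *OXCT1* in pig 2 (842 CPM, others 1183 to 1260.1). In the sham scar zone it was *ETFDH* (404 CPM, others 310.2 to 319) and *ACACB* (193 CPM, others 138 to 140.3), both in pig 5. In the sham border zone it was *CPT1B* in pig 5 (547 CPM, others 449.7 to 459), *ECHS1* in pig 4 (357 CPM, others 190.5 to 212) and *ETFA* in pig 13 (266 CPM, others 241 to 243).

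The IR effect on *ESRRA* was the lower one in the scar zone, by -0.49 on the log2 scale (scar minus border) at the unadjusted p of edgeR only. It passed in 2 of 8 fits with 1 pig left out and in 5 of 10 other alternatives, and its adjusted p was 1.00. In addition the scar minus border difference of *ANGPTL4* was 0.58 higher in IR than in sham pigs (exact permutation test).

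The male IR effect minus the female one passed the unadjusted p of edgeR, with 2 pigs in each group and no adjusted call, for 18 genes in the scar zone, 4 higher and 14 lower, beside 9.62% and 9.06% of all genes. It was above 0 on the log2 scale for *PDK4* (3.78), *CPT1A* (1.38), *ANGPTL4* (1.12) and *CPT2* (0.97). It was below 0 for *PLIN5* (-3.34), *PPARGC1A* (-1.02), *PPARA* (-0.99), *ETFA* (-0.91), *FABP3* (-0.84), *BDH1* (-0.82), *ACADSB* (-0.76), *ESRRA* (-0.75), *SLC27A1* (-0.70), *ACAT1* (-0.67), *ECHS1* (-0.65), *ACADS* (-0.55), *ACADM* (-0.54) and *ECI1* (-0.49). In the border zone it passed that p and was above 0 for 7 genes, beside 3.04% of all genes, and below 0 for 0 genes, beside 3.85%. These were *PDK4* (3.46), *SLC27A6* (1.40), *ANGPTL4* (1.13), *CPT2* (0.86), *SLC25A20* (0.82), *ACADL* (0.72) and *ACADVL* (0.67).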

How the results depend on the processing

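No gene of the list passed the adjusted p under any alternative of the 5 comparisons, and no direction called was reversed. Scar zone genes lower in IR pigs at the unadjusted p numbered 4 with DESeq2, 7 with sex as a covariate, 10 with 1 factor of unwanted variation, 4 in a single fit and 1 without pigs 9 and 11, and 1 to 10 when any 1 pig was left out. All genes past that p in either direction were 12.8%, 15.8%, 16.8%, 13.3% and 5.48% in the first 5 of these, and 11.2% in the reported fit. With cardiomyocyte scaling 16 of them were below 0. In the border zone DESeq2 and the 3 fits of limma on TPM gave 2 higher genes each (4.36% and 2.997% to 3.20% of all genes passed that p in either direction), and leaving out 1 pig gave 0 to 2 higher and 0 to 2 lower (1.92% to 6.94%).

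For the difference between zones, the 3 limma fits, cardiomyocyte scaling and leaving out pigs 9 and 11 gave 0 lower genes (0.777% to 1.75%, 3.91% and 1.11% of all genes), and leaving out 1 pig gave 0 to 2 (0.944% to 4.43%). Leaving out pigs 9 and 11 gave 1 higher gene, 20 below 0 and a median of -0.0042, and cardiomyocyte scaling gave 17 below 0 and a median of 0.0176. A replicate block for pig gave 4 lower and 1 higher (6.99% of all genes).

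Between zones of IR pigs, DESeq2 gave 3 lower genes, edgeR without the filter 1, limma without the filter 1, the replicate block 8 and leaving out 1 pig 0 to 2, beside 5.27%, 4.36%, 2.36%, 11.3% and 1.34% to 5.38% of all genes. Cardiomyocyte scaling gave 11 below 0 and a median of 0.0529, and leaving out pigs 9 and 11 gave 18 below 0 and 1 higher (1.35%). In sham pigs cardiomyocyte scaling gave 11 below 0, leaving out 1 pig 5 to 21, and the replicate block 3 higher (4.77%).

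In males, lower genes past the adjusted p in the scar zone numbered 16 with DESeq2, 1 with limma and 1 with cardiomyocyte scaling, and 0 to 9 when 1 pig was left out. All genes past it were 13.9%, 11.6% and 16.3% in the first 3, with a median of all genes of -0.00298, 0.33 and 0.46 on the log2 scale. Higher genes numbered 2 with limma, 3 with cardiomyocyte scaling and 0 to 1 when 1 pig was left out. On the TPM scale the exact test gave 0 separate genes in the border zone (0.561% of all genes lower, 1.17% higher) and 3 for the within-pig difference (0.455% and 2.16%). The cause of these changes was not tested. At 3 counts, the limit of detection was at most 0.194 CPM, and *UCP3* lay close to it.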
